A study of Mus musculus with 6 samples.

Results

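The SLAM family receptor genes Slamf1, Slamf7, Slamf8, Slamf9, Cd48, Cd84 and Ly9 were followed in macrophages differentiated in culture from mouse bone marrow. These 7 genes were picked by symbol, out of 55023 genes listed in the deposited count table, with earlier results of these data known. The cells had been cultured for 24 h with LCL161 plus LTα1β2, with LTα1β2 alone, or with vehicle, and each of these 3 groups holds 2 libraries. LTα1β2, a membrane lymphotoxin made of alpha and beta chains, signals through the lymphotoxin beta receptor. LCL161 is a synthetic antagonist of cIAP1 and cIAP2, ubiquitin ligases that restrain the noncanonical NF-kB pathway. LCL161 was always given together with LTα1β2, so its effect can be read only on top of the lymphotoxin. The labels give neither the doses, nor the strain and age of the mice, nor whether the libraries of a group came from separate animals or cultures. The p-values below therefore cover only the scatter between the libraries sequenced, and this scatter may be technical.

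SLAM receptors are small immunoglobulin-type proteins of the surface of blood cells. Most of them bind another copy of themselves on a neighbouring cell, while CD48 is a lipid-anchored ligand for CD244 and CD2. The longer receptors (SLAMF1, SLAMF7, CD84, LY9) carry tyrosine motifs that recruit the adaptors SAP and EAT-2 or, in their absence, inhibitory phosphatases. SLAMF8 and SLAMF9 have short tails without these motifs. In mouse macrophages SLAMF1 is known for bringing the Vps34 lipid kinase complex to phagosomes, SLAMF7 for promoting the engulfment of blood-derived tumour cells together with the integrin Mac-1, and SLAMF8 for restraining the NADPH oxidase. These are background statements and not results of the present data.

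All 7 genes lie on chromosome 1 in GRCm38 (GENCODE M21 annotation), in a pair of groups. The first group of 5 genes spans 302 kb: Ly9 (171588624 to 171607410, minus strand), Slamf7 (171632403 to 171653035, minus), Cd48 (171682009 to 171705258, plus), Slamf1 (171767127 to 171801184, plus) and Cd84 (171839697 to 171890718, plus). The second group, 585 kb further on, holds Slamf9 (172475358 to 172478575, plus) and Slamf8 (172581758 to 172590568, minus). Exons of Slamf7 overlap the predicted gene Gm37787 on the other strand, and whether the counting used strand is not given in the sources used here. Gm37787 was counted at 591 and 540.5 reads with LCL161 plus LTα1β2, 367.5 and 405.5 with LTα1β2, and 94.5 and 71 in vehicle, so reads of the pair cannot be told apart with certainty. Counts of Slamf7 were whole numbers in only 1 library and those of Cd84 in none, which means that some of their reads were divided among features by the authors' counting. Counts of Slamf8, Cd48 and Ly9 were whole in all 6 libraries.

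The promoter sequences of the 4 members with the largest changes are shown because the values below split them into genes that moved with LTα1β2 alone (Slamf8, Slamf7, Slamf9) and 1 that did not (Slamf1). They are the 250 bases before the gene start in RefSeq's annotation of GRCm38.p6, 5′ to 3′ on the gene's strand, and capitals mark matches to the motifs named below. Matches after the start lie outside the stretches printed, and RefSeq's start of Slamf7 lies inside the GENCODE gene span given above.
Slamf8, chr1:172590569-172590818, minus strand: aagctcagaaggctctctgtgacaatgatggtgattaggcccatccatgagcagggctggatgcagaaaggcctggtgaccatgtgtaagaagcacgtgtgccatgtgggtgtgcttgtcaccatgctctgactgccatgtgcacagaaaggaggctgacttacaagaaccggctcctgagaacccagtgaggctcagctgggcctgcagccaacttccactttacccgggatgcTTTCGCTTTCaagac
Slamf7, chr1:171649000-171649249, minus strand: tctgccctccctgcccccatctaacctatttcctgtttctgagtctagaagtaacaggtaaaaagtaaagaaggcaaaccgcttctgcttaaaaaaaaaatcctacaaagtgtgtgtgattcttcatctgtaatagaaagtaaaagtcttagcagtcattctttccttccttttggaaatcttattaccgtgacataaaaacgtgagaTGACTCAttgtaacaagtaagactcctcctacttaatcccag
Slamf9, chr1:172475110-172475359, plus strand: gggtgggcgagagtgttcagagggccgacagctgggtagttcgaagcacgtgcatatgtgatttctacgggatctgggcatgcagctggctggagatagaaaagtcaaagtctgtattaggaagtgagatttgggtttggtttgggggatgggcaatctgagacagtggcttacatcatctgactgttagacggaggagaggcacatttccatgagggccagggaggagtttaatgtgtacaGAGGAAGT
Slamf1, chr1:171766882-171767131, plus strand: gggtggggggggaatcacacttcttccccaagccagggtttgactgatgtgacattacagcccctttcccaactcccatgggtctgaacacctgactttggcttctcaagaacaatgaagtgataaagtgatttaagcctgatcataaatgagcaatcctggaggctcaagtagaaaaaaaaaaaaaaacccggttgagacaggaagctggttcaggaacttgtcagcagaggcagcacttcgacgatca
Windows of 250 bases before to 50 after the start were searched on both strands for the interferon-stimulated response element (ISRE, the letters GAAA, any pair of bases, then GAAA), the gamma-activated site (GAS, TTCNNNGAA), the NF-kB consensus, the AP-1 site (TGANTCA) and a PU.1 site (GAGGAAGT), and 6 of the 7 members have such a window in the table used. The Slamf8 window held an ISRE match at -15 to -6, on the opposite strand (TTTCGCTTTC as printed), an AP-1 match at 10 to 16 and an NF-kB match at 37 to 46 after the start (GGGACTTTCC). The ISRE was present in 3.44% of 32851 windows of the same length, the AP-1 site in 7.81% and the NF-kB consensus in 8.46%. Slamf7 held an AP-1 match at -42 to -36, and Slamf9 a PU.1 match at -8 to -1, a motif present in 3.2% of windows. Cd84 held an AP-1 match at -229 to -223, further from the start than the others. No searched motif was found in the windows of Slamf1 and Cd48, and the GAS, present in 8.3% of windows, was in none of the 6. A match describes letters only and does not show binding.

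Total counts were 14718368 to 19049613 per library, and 18812 genes passed the filter on low counts, all 7 members among them. Levels are CPM, read counts scaled to library size after TMM correction for library composition. Scaling by total counts instead moved the median log2 change of all genes to -0.23 for LTα1β2 against vehicle (-0.04 with TMM), to -0.12 for LCL161 plus LTα1β2 against LTα1β2 (0 with TMM) and to -0.26 for LCL161 plus LTα1β2 against vehicle (0.05 with TMM). The share of called genes that were higher moved with it, to 33%, 28% and 24.6% in these comparisons (54.8%, 41.2% and 46.6% with TMM). The 8 macrophage markers (Lyz2, Csf1r, Adgre1 and others) were all detected and summed to 32100 and 33800 CPM with LCL161 plus LTα1β2, 32700 and 32000 with LTα1β2, and 27400 and 33900 in vehicle. The 9 stromal markers summed to 378 and 430, 1480 and 2180, and 5960 and 3630 CPM in these groups, so stromal RNA was lower beside every change given here, and the part of stromal cells in those changes was not tested. The 6 dendritic cell markers summed to 19.9 and 20.7, 14.5 and 14.2, and 8.05 and 9.46 CPM, and the 5 NK cell markers to 9.63 and 9.27, 8.87 and 8.23, and 0.972 and 1.13 CPM. Of these NK cell sums, Klrk1 alone held 6.71 and 7.35, 7.79 and 7.97, and 0.185 and 0.324 CPM. No other NK cell marker exceeded 1.53 CPM in any library, and only 2 of the 5 passed the filter. The 7 neutrophil markers summed to 355 and 370, 932 and 718, and 442 and 629 CPM. Their part in the members' changes was not tested either. Lymphocyte markers were near 0: the 8 T cell markers summed to 5.67 to 13.8 CPM over all libraries, and the 6 B cell markers to 12.9 to 37.3 CPM. In bulk RNA, fewer cells of a type and less RNA per cell cannot be told apart.

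Per kilobase of exon, Slamf8 was the most abundant family member in both treated groups and Cd48 in vehicle. Levels of different genes were compared as CPM per kilobase of exon, using all annotated exons of a gene. With LCL161 plus LTα1β2 the order was Slamf8 (257 ± 7.28, SD, n = 2), Slamf7 (136 ± 7.59), Cd48 (119 ± 5.39), Ly9 (98.3 ± 3.22), Cd84 (38.3 ± 1.41), Slamf9 (24.7 ± 2.5) and Slamf1 (2.49 ± 0.471), and no neighbours in that order overlapped between libraries. With LTα1β2 alone it was Slamf8 (108 ± 6.31), Cd48 (93.8 ± 5.4), Slamf7 (70.3 ± 4.13), Ly9 (64.6 ± 5.67), Cd84 (53.9 ± 5.11), Slamf9 (47.2 ± 5.76) and Slamf1 (0.133 ± 0.0166), where the libraries of Slamf7 and Ly9, and those of Cd84 and Slamf9, overlapped. In vehicle, Cd48 stood highest at 116 ± 20.3, followed by Cd84 at 62.1 ± 5.23, Ly9 at 50.5 ± 5, Slamf7 at 14.5 ± 1.64, Slamf9 at 9.99 ± 1.32, Slamf8 at 1.66 ± 0.0133 and Slamf1 at 0.11 ± 0.0178. Neighbours did not overlap in that order either. Slamf8 thus made up 37.2% and 38.8% of the family's summed level per kilobase with LCL161 plus LTα1β2, 23.3% and 26% with LTα1β2, and 0.596% and 0.716% in vehicle. Cd48 made up 17.1% and 18.2%, 20.8% and 22%, and 43.6% and 47.1% in the same groups. These orders depend on the division by exon length. In CPM without it, Cd84 stood highest in vehicle at 366 and 412, against 121 and 155 for Cd48. With LTα1β2 alone, Cd84 at 361 and 315 CPM overlapped Slamf8 at 319 and 346 CPM. Slamf8 was also highest in CPM with LCL161 plus LTα1β2, at 776 and 807.

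**Figure D1:**
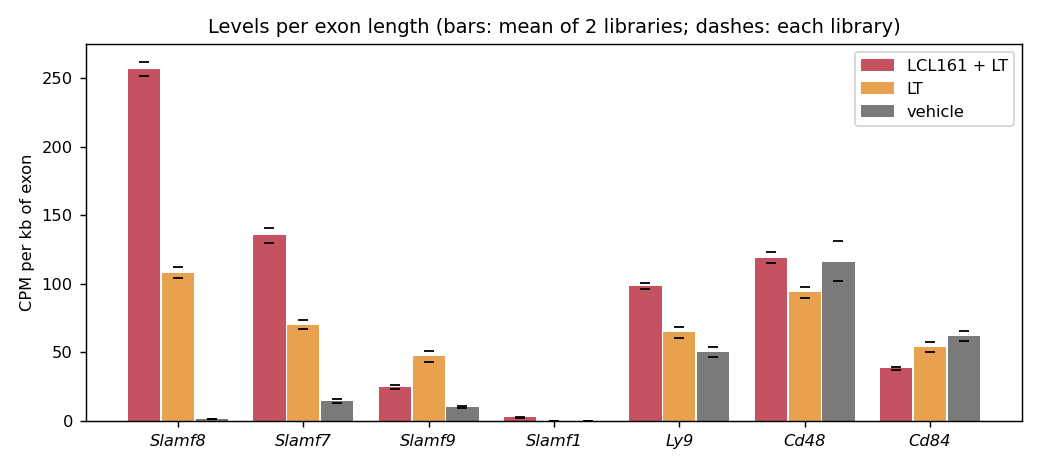
Levels of the 7 genes as CPM per kilobase of exon on a linear axis, with bars for the mean of 2 libraries per group and dashes for each library; LT stands for LTα1β2. Slamf8 is the highest bar with LCL161 plus LTα1β2 at 257 and stands at 1.66 in vehicle, while the group means of Cd48 lie between 93.8 and 119.

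LTα1β2 alone raised Slamf8, Slamf7 and Slamf9, the 3 of the 7 members that passed the test (edgeR quasi-likelihood, Benjamini-Hochberg adjustment over all genes). Among all 18812 genes tested 23.4% were called in this comparison, 12.8% as higher and 10.6% as lower. The median log2 change of the 7 members was 0.35, beside -0.04 for all genes. Slamf8 had 319 and 346 CPM with LTα1β2, against 5.14 and 5.08 CPM in vehicle. The groups lie far apart: the log2 change was 6.02 (SE 0.12, edgeR adjusted p = 2e-07), a fold of 65 that ranks 44 among the log2 changes of all genes tested. Slamf7 had 335 and 309 CPM with LTα1β2, against 61.2 and 71.8 CPM in vehicle, a log2 change of 2.28 (SE 0.12, edgeR adjusted p = 1.54e-05). Slamf9, whose product is a short-tailed myeloid receptor, had 56.7 and 67.4 CPM with LTα1β2, against 14.4 and 11.9 CPM in vehicle, a log2 change of 2.24 (SE 0.15, edgeR adjusted p = 6.5e-05). Slamf7 and Slamf9 thus changed by similar folds, 4.84 and 4.72, from different levels.

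The other 4 members did not pass with LTα1β2 alone. Libraries of the groups did not overlap for 6 of the 7 members, Slamf1 being the exception, nor for 63.4% of all genes. Slamf1, known in mice also as a marker of blood stem cells, had 0.893 and 0.748 CPM with LTα1β2, against 0.602 and 0.757 CPM in vehicle, and the libraries overlapped. These levels rest on 28 reads with LTα1β2 and 27 in vehicle, and their ratio was 1.21 (95% exact interval 0.687 to 2.13, for counting error only). At this depth the counts are thus compatible with any ratio within that interval. Ly9, a self-binding receptor, had 227 and 200 CPM with LTα1β2, against 155 and 179 CPM in vehicle (log2 change 0.35, SE 0.11, edgeR adjusted p = 0.0566). Of 15 alternative settings, 5 placed Ly9 past the threshold, and its adjusted p ran from 0.0081 to 0.318. Cd48 had 116 and 107 CPM with LTα1β2, against 121 and 155 CPM in vehicle (log2 change -0.31, SE 0.13, edgeR adjusted p = 0.138). Cd84, a self-binding receptor of macrophages and platelets, had 361 and 315 CPM with LTα1β2, against 366 and 412 CPM in vehicle (log2 change -0.20, SE 0.11, edgeR adjusted p = 0.232). Under total-count scaling both were called lower, Cd48 at -0.50 (edgeR adjusted p = 0.0231) and Cd84 at -0.39 (edgeR adjusted p = 0.0309). The platelet and megakaryocyte markers, led by Pf4, summed to 260 and 247 CPM with LCL161 plus LTα1β2, 215 and 213 with LTα1β2, and 422 and 484 in vehicle. Their part in the level of Cd84 was not tested.

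**Figure D2:**
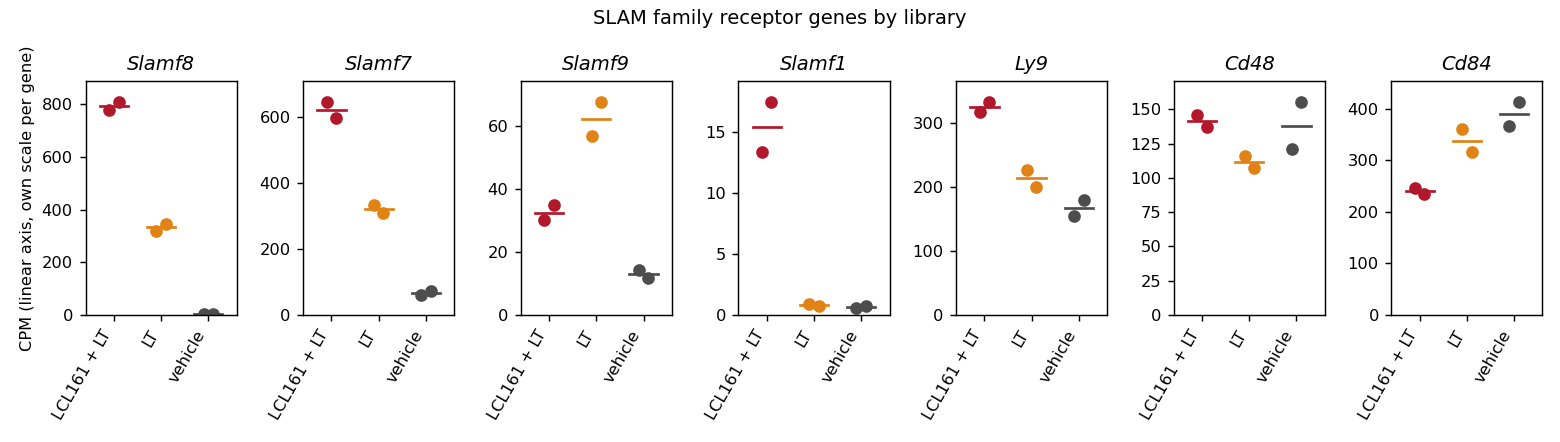
CPM of each of the 7 genes in all 6 libraries, on a linear axis from 0 with its own scale per gene; points are libraries and lines are means of 2. Slamf8 and Slamf7 step up in both treated groups, Slamf9 is highest with LTα1β2 alone at 56.7 and 67.4 CPM, Slamf1 is above 13 CPM only with LCL161 plus LTα1β2, and Cd84 is lowest there at 246 and 234 CPM.

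Adding LCL161 to LTα1β2 changed 6 of the 7 members: Slamf1, Slamf8, Slamf7 and Ly9 rose, and Slamf9 and Cd84 fell. In this comparison 25.7% of all genes were called, 10.6% higher and 15.1% lower, and the median log2 change was 0.61 for the members and 0 for all genes. Slamf1 was the member that moved furthest, with 13.3 and 17.4 CPM with LCL161 plus LTα1β2, against 0.893 and 0.748 CPM with LTα1β2. Its log2 change was 4.22 (SE 0.25, edgeR adjusted p = 6.26e-05), which ranks 41 among all genes tested, and the depth-corrected ratio of the 409 and 28 reads behind it was 18.8 (95% exact interval 12.8 to 28.6, for counting error only). Procr, another stem cell marker, also moved here, with 691 and 745 CPM against 31.4 and 40.3 CPM with LTα1β2 alone. Other progenitor markers stayed low, with Cd34 at 2.48 and 1.53 CPM against 8.36 and 6.63 CPM, Kit at 4.96 and 2.6 against 1.98 and 0.695, and Gata2 at 0.73 and 0.842 against 0.957 and 2.3. Whether progenitor cells contribute to the Slamf1 reads was not tested.

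Slamf8 had 776 and 807 CPM with LCL161 plus LTα1β2, against 319 and 346 CPM with LTα1β2, a log2 change of 1.25 (SE 0.09, edgeR adjusted p = 0.000147). Slamf7 had 646 and 597 CPM, against 335 and 309 CPM with LTα1β2, a log2 change of 0.95 (SE 0.11, edgeR adjusted p = 0.000918). Both genes were thus higher in each step, and the steps share the LTα1β2 libraries. Slamf9 went the other way: it had 30.1 and 34.8 CPM with LCL161 plus LTα1β2, against 56.7 and 67.4 CPM with LTα1β2 (log2 change -0.94, SE 0.15, edgeR adjusted p = 0.00331). Ly9 had 317 and 332 CPM, against 227 and 200 CPM with LTα1β2 (log2 change 0.61, SE 0.11, edgeR adjusted p = 0.00685). Cd84 had 246 and 234 CPM, against 361 and 315 CPM with LTα1β2 (log2 change -0.49, SE 0.11, edgeR adjusted p = 0.0155). The call of Ly9 was lost without LTα1β2 replicate 2 (edgeR adjusted p = 0.0825), and that of Cd84 without LTα1β2 replicate 1 (edgeR adjusted p = 0.0577). Cd48 had 146 and 137 CPM, against 116 and 107 CPM with LTα1β2, and did not pass (log2 change 0.35, SE 0.13, edgeR adjusted p = 0.0923). All 7 members had libraries that did not overlap between these groups, as did 67.8% of all genes tested.

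**Figure D3:**
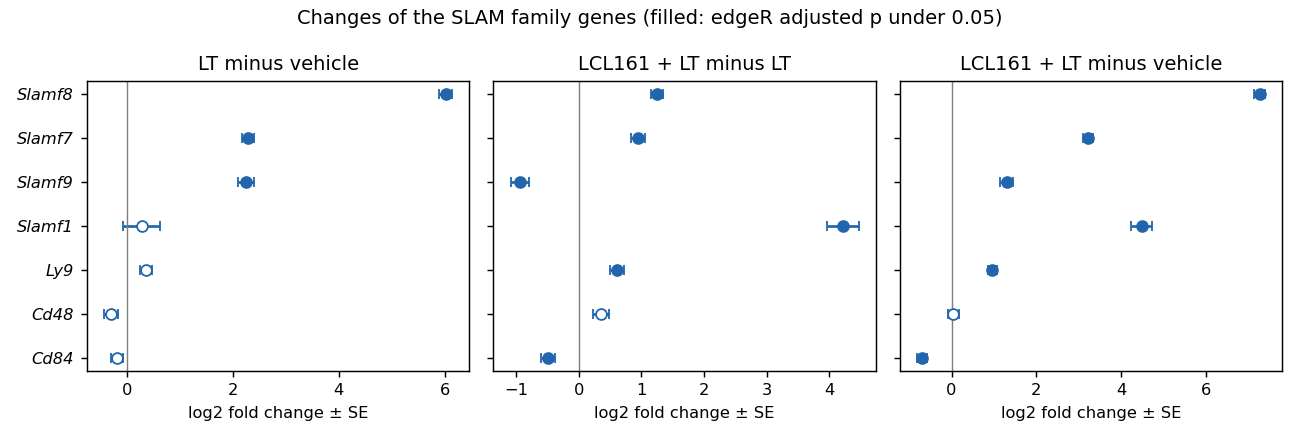
log2 fold changes with approximate SE of the 7 genes in the 3 comparisons, filled where the edgeR adjusted p passed 0.05; each panel has its own linear axis. Slamf8 leads with LTα1β2 at 6.02, Slamf1 leads when LCL161 is added at 4.22, and Slamf9 is positive in the first panel at 2.24 and negative in the second at -0.94.

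Against vehicle, LCL161 plus LTα1β2 raised Slamf8, Slamf1, Slamf7, Slamf9 and Ly9 and lowered Cd84, which is 6 of 7 members, where 39.5% of all genes were called (18.4% higher, 21.1% lower). Libraries did not overlap for 6 of 7 members (all but Cd48), nor for 73.8% of all genes. This comparison shares its libraries with the other comparisons and adds no independent evidence to them. Slamf8 reached a log2 change of 7.27 (SE 0.13, edgeR adjusted p = 9e-08), a fold of 155. Slamf1 reached 4.49 (SE 0.25, edgeR adjusted p = 9.27e-06) and Slamf7 3.22 (SE 0.12, edgeR adjusted p = 1.72e-06). Slamf9 stayed above vehicle by 1.30 (SE 0.15, edgeR adjusted p = 0.000366) and Ly9 by 0.96 (SE 0.11, edgeR adjusted p = 0.000363), while Cd84 fell by 0.70 on the log2 scale (SE 0.11, edgeR adjusted p = 0.00179). Cd48 averaged 142 ± 6.41 CPM with LCL161 plus LTα1β2 and 138 ± 24.2 CPM in vehicle (SD, n = 2 each), with overlapping libraries, and the log2 change of 0.04 was -0.27 under total-count scaling. Ratios between members inside a library do not depend on scaling. Slamf8 had 3.15 and 3.45 reads per read of Cd84 with LCL161 plus LTα1β2, 0.884 and 1.1 with LTα1β2, and 0.014 and 0.0123 in vehicle. Slamf9 had 0.0389 and 0.0431 reads per read of Slamf8, 0.178 and 0.195, and 2.79 and 2.34 in the same groups.

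For each member the genes with the most similar profile were sought among 10130 genes of at least 5 CPM, by the root-mean-square difference of centred log2 CPM over the 6 libraries. Ggct and Cd52 were nearest to Slamf7, with differences of 0.0591 and 0.0921 on the log2 scale. Cd52, which encodes a surface glycoprotein of leukocytes, averaged 791 ± 53.1 CPM with LCL161 plus LTα1β2, 430 ± 10.8 with LTα1β2 and 90 ± 4.76 in vehicle. Slamf8 had no gene as close as that: Calhm6 differed by 0.375 and Ccl8 by 0.408. The differences are not scaled to a member's own spread, which differed widely. The SD of log2 CPM over the 6 libraries was 3.46 for Slamf8, 1.49 for Slamf7 and 0.208 for Cd48. Malt1, a protease and scaffold of NF-kB signalling, differed from Slamf1 by 0.166 and averaged 285 ± 12.2 CPM with LCL161 plus LTα1β2, 19.4 ± 1.23 with LTα1β2 and 17.1 ± 2.51 in vehicle. The cystine transporter gene Slc7a11 differed from Slamf1 by 0.183. The integrin gene Itgb7 differed from Slamf9 by 0.179 and had the same peak with LTα1β2 alone, at 112 ± 7.63 CPM, against 52.4 ± 4.01 with LCL161 plus LTα1β2 and 22.7 ± 1.67 in vehicle. Fbxl17 followed Slamf9 at 0.186. Ncf4, a cytosolic subunit of the NADPH oxidase, was nearest to Ly9 at 0.0366, then Il11ra1 at 0.0458. Klf10 and Sat1 were nearest to Cd84 at 0.0391 and 0.0456, and Mcee and Rab33b to Cd48 at 0.0457 and 0.0565. With 3 groups and 6 libraries, closeness of this kind is a description only.

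Among other family genes and counter-receptors, Slamf6 followed the rising members. Slamf6, a self-binding receptor best known from lymphocytes, had 50.9 and 57.4 CPM with LCL161 plus LTα1β2, 16.7 and 15.2 with LTα1β2, and 4.63 and 5.3 in vehicle. Its log2 change was 1.68 with LTα1β2 (SE 0.14, edgeR adjusted p = 0.000213) and 1.76 when LCL161 was added (SE 0.13, edgeR adjusted p = 0.000148). Cd244a, which encodes the receptor for CD48, had 3.06 and 2.37 CPM with LCL161 plus LTα1β2, 4.59 and 3.9 with LTα1β2, and 4.77 and 4.16 in vehicle. It was called lower with LCL161 plus LTα1β2 than in vehicle (log2 change -0.71, SE 0.23, edgeR adjusted p = 0.0414). That call was lost in 8 of 15 alternatives, among them leaving out LCL161 plus LTα1β2 replicate 2, LTα1β2 replicate 1 or either vehicle library (adjusted p over all alternatives 0.0107 to 0.146). Cd2, the other receptor of CD48, had 0.054 to 0.766 CPM over all libraries, which was under the filter. SLAM adaptor genes were scarce. Sh2d1a (SAP) and Sh2d1b2 were also under the filter, at most at 1.02 and 0.324 CPM. Sh2d1b1 (EAT-2) had 0.876 and 0.306 CPM with LCL161 plus LTα1β2, against 3.57 and 2.3 CPM with LTα1β2, and fell by 2.28 on the log2 scale (SE 0.46, edgeR adjusted p = 0.0107).

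Of the 13 tested genes among 15 adaptors, kinases and phosphatases of SLAM signalling, 9 rose and none fell with LTα1β2 (69.2% called, beside 23.4% of all genes), with a median log2 change of 0.64 beside -0.04. Adding LCL161 raised 2 and lowered 8 of the 13 (76.9% called, beside 25.7% of all genes), with a median of -0.45 beside 0. Without vehicle replicate 1 there were 4 calls with LTα1β2, and 5 without LTα1β2 replicate 2. Leaving out LTα1β2 replicate 1 left 6 of the 10 calls made when LCL161 was added, and leaving out LTα1β2 replicate 2 left 4. The inhibitory phosphatase genes Ptpn6 and Inpp5d were called higher with LTα1β2, though not every phosphatase gene of the list was. Ptpn6 (SHP-1) had 660 and 741 CPM with LCL161 plus LTα1β2, 599 and 580 with LTα1β2, and 227 and 261 in vehicle, a log2 change of 1.27 with LTα1β2 (SE 0.11, edgeR adjusted p = 0.000244) and 0.25 when LCL161 was added (SE 0.11, edgeR adjusted p = 0.132). Inpp5d (SHIP-1) had 206 and 211 CPM with LCL161 plus LTα1β2, 382 and 383 with LTα1β2, and 261 and 306 in vehicle. Its log2 change with LTα1β2 was 0.43 (SE 0.10, edgeR adjusted p = 0.0215), a call lost without either LTα1β2 library or vehicle replicate 1 (adjusted p up to 0.148), and it fell by 0.87 when LCL161 was added (SE 0.10, edgeR adjusted p = 0.000956). The Src-family kinase gene Lyn rose by 1.01 with LTα1β2 (SE 0.09, edgeR adjusted p = 0.000293) and fell by 0.73 when LCL161 was added (SE 0.09, edgeR adjusted p = 0.00119).

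A list of 6 genes for phagocytosis with SLAMF7 holds the inhibitory pair Sirpa and Cd47 beside integrin and signalling chain genes. Of these 6 genes, 4 rose with LTα1β2 (66.7%, beside 23.4% of all genes called). When LCL161 was added 3 rose and 1 fell (66.7%, beside 25.7%). Cd47 is counted among the genes that rose in both steps. Their median log2 changes were 0.66 and 0.36, beside -0.04 and 0 for all genes. These 4 calls came to 2 when LCL161 plus LTα1β2 replicate 2 or either LTα1β2 library was left out. The Mac-1 alpha chain gene Itgam was the one that fell, with 259 and 236 CPM with LCL161 plus LTα1β2 against 432 and 431 CPM with LTα1β2 (log2 change -0.80, SE 0.10, edgeR adjusted p = 0.00106). Itgam had risen with LTα1β2, from 299 and 326 CPM in vehicle (log2 change 0.46, edgeR adjusted p = 0.0126). That call was lost in 3 of 15 alternatives. The beta chain gene Itgb2 had 2070 and 2300 CPM with LCL161 plus LTα1β2, 1440 and 1490 with LTα1β2, and 613 and 752 in vehicle. It rose by 1.1 with LTα1β2 (SE 0.13, edgeR adjusted p = 0.000908). When LCL161 was added Itgb2 rose by 0.58 (SE 0.13, edgeR adjusted p = 0.0138), a call lost in 3 of 15 alternatives. Fcer1g, the signalling chain of Fc receptors, had 1520 and 1740 CPM with LCL161 plus LTα1β2, against 991 and 1020 with LTα1β2 and 511 and 560 in vehicle (log2 change when LCL161 was added 0.69, SE 0.11, edgeR adjusted p = 0.00339). Cd47, the gene of the inhibitory ligand of SIRPA, had 336 and 360 CPM with LCL161 plus LTα1β2, 265 and 264 with LTα1β2, and 145 and 145 in vehicle, a log2 change of 0.86 with LTα1β2 (SE 0.09, edgeR adjusted p = 0.000545). Of 11 genes of the Vps34 complex and the NADPH oxidase, 8 rose and none fell with LTα1β2 (72.7% called, beside 23.4% of all genes), a count of 4 without vehicle replicate 1. When LCL161 was added 5 rose and 2 fell (63.6% called, beside 25.7% of all genes), 7 calls in all, against 4 with LTα1β2 replicate 1 left out and 2 with LTα1β2 replicate 2 left out. Cybb, the catalytic oxidase subunit, had 6250 and 5900 CPM with LCL161 plus LTα1β2, 2100 and 2110 with LTα1β2, and 804 and 955 in vehicle. It rose in both steps, by 1.26 with LTα1β2 (SE 0.12, edgeR adjusted p = 0.000324) and by 1.53 when LCL161 was added (SE 0.12, edgeR adjusted p = 0.000163). Uvrag, a subunit of the Vps34 complex, had 58.2 and 60.3 CPM with LCL161 plus LTα1β2, against 114 and 106 CPM with LTα1β2 (log2 change -0.89, SE 0.10, edgeR adjusted p = 0.000691).

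**Figure D4:**
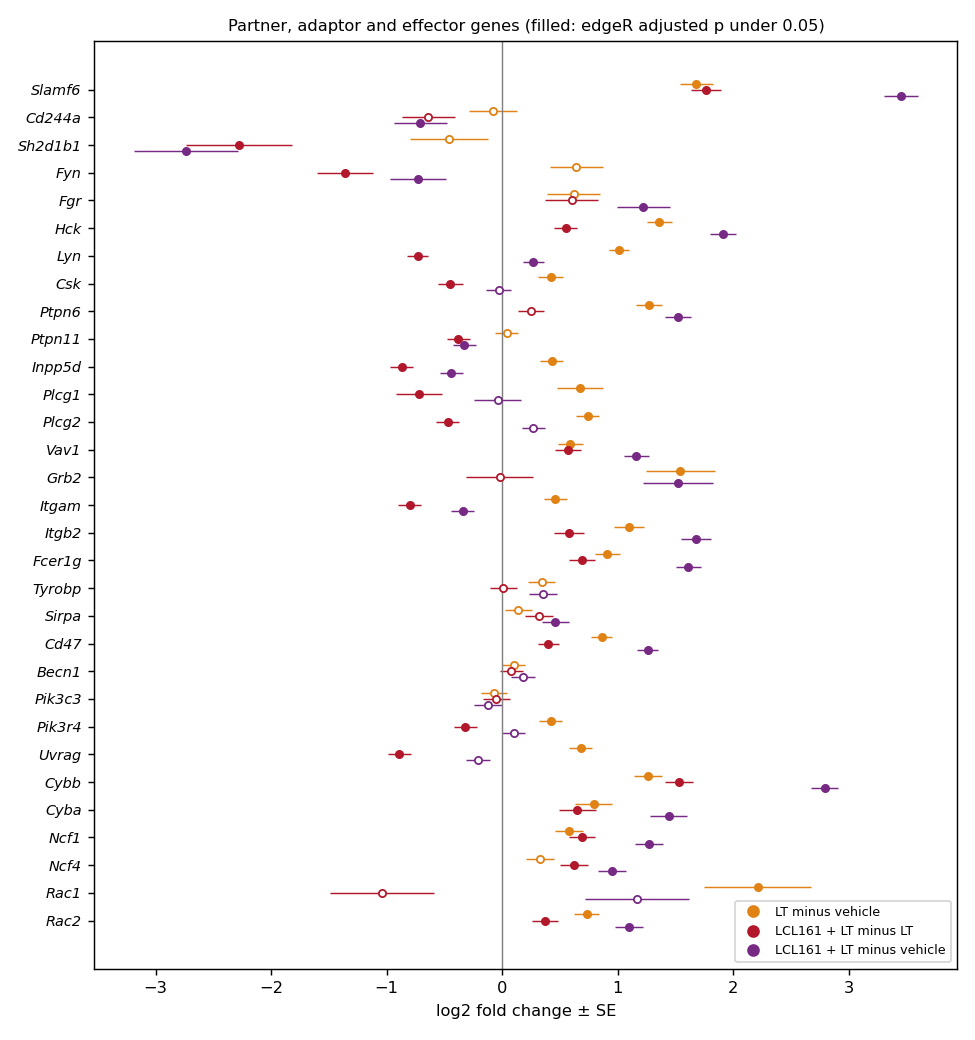
log2 fold changes with approximate SE of tested partner, adaptor and effector genes in the 3 comparisons, on a linear axis, filled where the edgeR adjusted p passed 0.05. Cybb and Slamf6 lie to the right of 0 in all comparisons, while Inpp5d, Lyn and Uvrag are positive with LTα1β2 and negative when LCL161 is added.

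Genes next to the SLAM genes were called at shares of 28% to 40%. Within 250 kb of a member the annotation has 32 other protein-coding genes, Slamf6 and Cd244a among them, and 25 of these passed the filter. With LTα1β2 9 of the 25 were called (36%, 7 higher and 2 lower, median log2 change 0.11), beside 23.4% of all genes, a count of 5 without vehicle replicate 1. When LCL161 was added 7 were called (28%, 3 higher and 4 lower, median 0.07), beside 25.7% of all genes, a count of 3 or 4 without any of the libraries of the groups compared. Against vehicle, LCL161 plus LTα1β2 changed 10 of 25 (40%), beside 39.5% of all genes, a count that was 4 when vehicle replicate 1 was left out, and 5 for vehicle replicate 2 or LCL161 plus LTα1β2 replicate 2. Tagln2, 21472 bases from Slamf9, had 488 and 513 CPM with LTα1β2, against 708 and 672 CPM in vehicle, and fell with LTα1β2 by 0.46 on the log2 scale (SE 0.10, edgeR adjusted p = 0.0119), where Slamf9 rose. Vangl2, a planar polarity gene 110242 bases from Cd84, had 3.64 and 2.89 CPM with LTα1β2, against 6.8 and 5.67 CPM in vehicle, and fell by 0.94 (SE 0.21, edgeR adjusted p = 0.0164). Tagln2 and Vangl2 were the 2 neighbours called lower with LTα1β2, and 7 were called higher. Among those 7, Slamf6 rose by 1.68 and F11r by 1.25 (SE 0.22, edgeR adjusted p = 0.00588). Usf1, 169482 bases from Ly9, rose by 1.15 (SE 0.13, edgeR adjusted p = 0.000927).

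**Figure D5:**
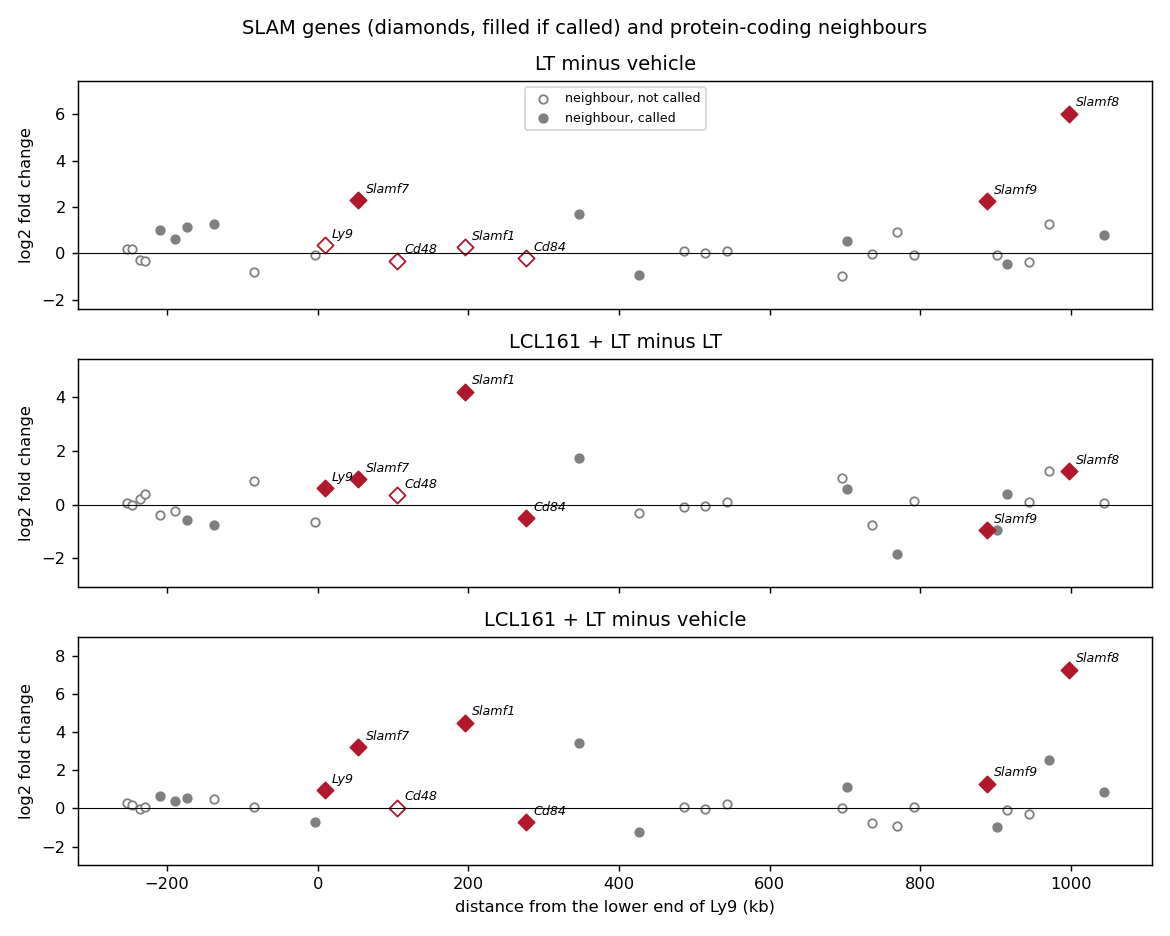
log2 fold changes along the SLAM region against distance from the lower end of Ly9 in kb, with 1 panel per comparison; diamonds are the 7 SLAM genes and circles the 25 tested neighbours, filled where called. Slamf8, near the right end, stands at 6.02 with LTα1β2 and 7.27 with LCL161 plus LTα1β2 against vehicle, while the median of the neighbours is 0.11 and 0.06 in these panels.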

How the data were processed

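RNA from mouse bone marrow-derived macrophages was measured in 6 libraries, grouped by the sample titles. The authors deposited 1 table of expected counts per gene symbol, unscaled, in which 66.6% of the values above 0 were whole (tolerance 1e-06 reads). The build GRCm38, STAR 2.7.3a and DESeq2 1.26.0 are named, per the submitters' processing notes; how reads were counted, and with what use of strand and of multiple matches, is not given in the sources used. For testing, counts were rounded. CPM used TMM-scaled library sizes, and CPM per kilobase the union of GENCODE M21 exons.

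edgeR 4.0.16 under R 4.3.3 was used: filterByExpr by group (minimum of 10 reads), TMM factors (0.874 to 1.15), estimateDisp, glmQLFit and glmQLFTest (two-sided), with all 3 groups in one fit (biological coefficient of variation 13.6%, residual degrees of freedom 3). P-values were adjusted by Benjamini-Hochberg over 18812 genes and called under 0.05; the approximate SE was taken as the absolute log2 change over the root of F. The model was tested on simulated data. Alternatives were relative log expression factors, total counts, DESeq2 1.42.0, limma voom 3.58.1, 2 other filters, edgeR's newer quasi-likelihood method, only the groups compared, a replicate block and leaving out each library. The members and gene lists were chosen with earlier results of these data known. All 7 members were named; list genes were named from those called in any comparison, by smallest p (up to 4 per list and comparison with values), neighbours from those called, and the 2 genes nearest in profile to each member. Cd2, Sh2d1a and Sh2d1b2 fall outside that rule and were named as list genes under the filter, after their values were seen. Some genes of the lists are counted but not reported here by name.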

Additional observations from a re-analysis of the deposited data

How the results depend on the processing

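The number of members called changed by over 1.5 times in 1 setting: with total counts 5 were called for LTα1β2 against vehicle, beside 3. The count was 3 in that comparison, 5 to 6 when LCL161 was added and 6 for LCL161 plus LTα1β2 against vehicle when each library was left out in turn. All genes called numbered 4401, 4832 and 7431 in these comparisons, and with a library left out 1930 to 4933, 2332 to 4604 and 4885 to 7285. Small changes turned sign. Cd48 for LCL161 plus LTα1β2 against vehicle (0.04) was -0.02 with no filter beyond 1 read, -0.27 with total counts and -0.18 to 0.18 with a library left out. Cd244a for LTα1β2 against vehicle (-0.08) was 0.01 with no filter beyond 1 read and -0.17 to 0.03 with a library left out. With total counts Sirpa for LTα1β2 against vehicle was -0.05, and for LCL161 plus LTα1β2 against vehicle Lyn was -0.04 and Plcg2 -0.03. The cause was not tested. With the replicate block, 3, 6 and 6 members were called, as without it. Differences between replicates 1 and 2 correlated at 0.0941 to 0.157 between groups, and nothing in the labels pairs the numbers. The alternatives for the neighbouring genes were added after the data were seen. With 27 and 28 reads of Slamf1 in vehicle and with LTα1β2, any ratio inside the counting interval stayed compatible with the counts.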
